A study of Drosophila melanogaster with 12 samples.

Results

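The GA-binding and insulator factors of Drosophila examined here are 10 genes, Trl, psq, lola, CTCF, su(Hw), mod(mdg4), Cp190, BEAF-32, pzg and Chro. They were chosen by name and not by their values, out of 13771 genes measured in L3 larvae. The transcripts listed for them number 83 of 29936, from 1 for CTCF to 22 for mod(mdg4) and 24 for lola. The level of a gene is the sum of the TPM (transcript abundance scaled to the same total in every library) of its transcripts in a library, and the share of an isoform is its percent of that sum.

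RNA came from whole L3 larvae of 4 groups with 3 libraries each: clamp null females, control females, clamp null males and control males. The mutant larvae are labelled yw;Clampnull and carry the clamp2 allele by the methods, and the controls are yw, so that both genotypes share the yw background. CLAMP is a zinc finger protein that binds GA repeats and recruits the male-specific dosage compensation complex to the X chromosome. The libraries are numbered 4 to 6 in clamp null larvae and 1 to 3 in controls, and the labels name 3 larvae each. It is unclear whether 3 larvae were pooled per library or were the 3 libraries of a group, so the spread between libraries may be that of pools or of single larvae. The study describes homozygous mutant males as dying before the end of larval life. Nothing else says how the mutant larvae matched the controls in age, so genotype and developmental stage cannot be told apart.

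Insulator proteins bind DNA at the borders of chromatin domains and can block contact between an enhancer and a promoter. In flies several DNA-binding proteins, among them CTCF, Su(Hw) and BEAF-32, bring the shared cofactors CP190 and Mod(mdg4) to such sites. GAGA factor, the product of Trl, and Pipsqueak bind GA repeats like CLAMP does, and many of these proteins meet through a BTB domain, a protein interface that forms dimers and larger assemblies.

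Each library sums to 1000000 TPM, its depth is unknown, and between 8665 and 11321 genes reached 1 TPM. Clamp itself was at 16.2 to 20.04 TPM in clamp null females, against 36.3 to 45.1 TPM in control females. Levels in clamp null males were 21.4 to 22.8 TPM, against 43.4 to 59.2 TPM in control males. Groups follow the sample titles, since a separate sex field of the labels contradicts them. Of 627 genes with at least 5 TPM in all control males and under 0.5 TPM in all control females, 25 and 20 reached 1 TPM in clamp null male libraries 4 and 5, against 499 in library 6. The clamp null female libraries had 14 to 28 of them at 1 TPM, so libraries 4 and 5 were like female libraries in these genes. The genes include testis genes, and whether these larvae were female or lacked testis RNA was not tested. The level of each member in males is also given without libraries 4 and 5 where the call changes. Calls of 3′ end forms, coding forms, partners, other named genes and tissue lists are given only with them. Without them a single clamp null male library is left, so such values rest on it alone and are given as effect sizes. Over the 11145 genes tested, the median log2 fold change of clamp null over control was -0.20 in females and -0.75 in males, and -0.02 and -0.23 when libraries were scaled by the median of gene ratios instead. With that scaling 1506 genes were called higher and 1235 lower in females, against 1092 and 1742 without it. In males it gave 2030 higher and 3134 lower, against 1263 and 5103.

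CTCF was higher in clamp null larvae of both sexes, whereas most of the other members were lower (see the plot of TPM by library and the plot of effects). In females 6 of 10 members passed an adjusted p of 0.05 in limma, 1 higher and 5 lower, beside 25.4% of all genes tested, 9.8% higher and 15.6% lower. In males 9 of 10 passed, 1 higher and 8 lower, beside 57.1% of all genes, 11.3% higher and 45.8% lower. The median log2 fold change of the 10 members was -0.91 in females and -1.13 in males. The libraries of clamp null and control females did not overlap for 7 lower members and for CTCF, beside 26.3% of all genes lower and 14.4% higher without overlap. In males this held for 9 lower members and for CTCF, beside 51.1% lower and 12.5% higher. With median-of-ratios scaling the calls in females were again 1 higher and 5 lower, whereas in males 5 members were called lower, since lola, BEAF-32 and Chro were no longer called. That scaling moved the values of the called members in males by over 1.5 times, to -0.65 for Trl, -0.66 for su(Hw), -0.68 for pzg, -0.84 for psq and -1.01 for mod(mdg4). Uncalled in females, lola was then at -0.40 and Chro at -0.45. Without clamp null male libraries 4 and 5, the values in males were 1.41 for CTCF, -1.03 for Trl and -1.61 for mod(mdg4).

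**Figure D1:**
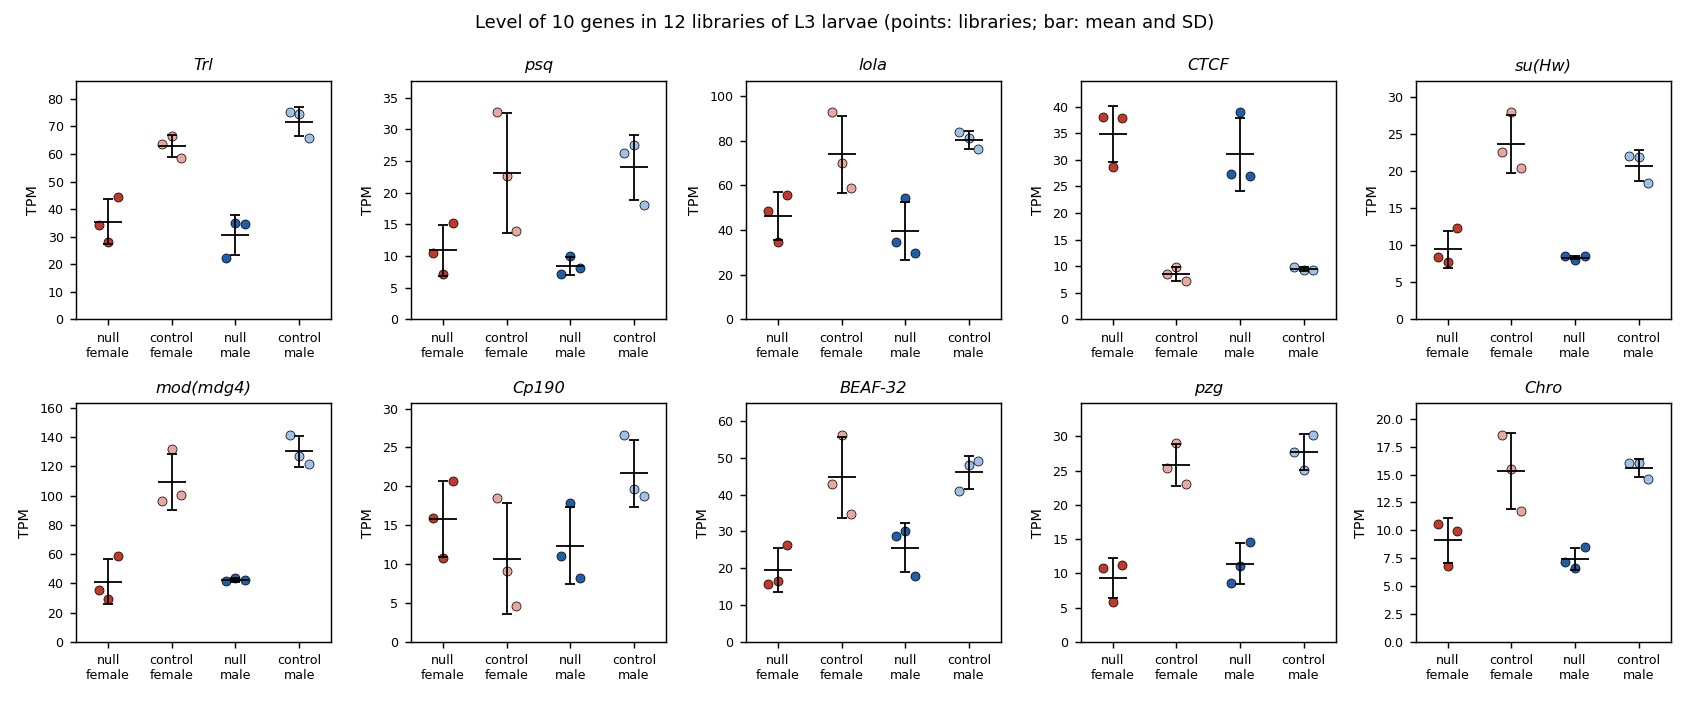
TPM of the 10 genes (vertical axes, from 0) in each of 12 libraries, as points, for clamp null females, control females, clamp null males and control males; the long bar is the group mean and the whisker 1 SD (n = 3). CTCF sits at 26.9 to 39.0 TPM in all 6 clamp null libraries and at 7.3 to 9.9 TPM in all 6 controls, while mod(mdg4) and su(Hw) lie lower in every clamp null library than in any control.

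**Figure D2:**
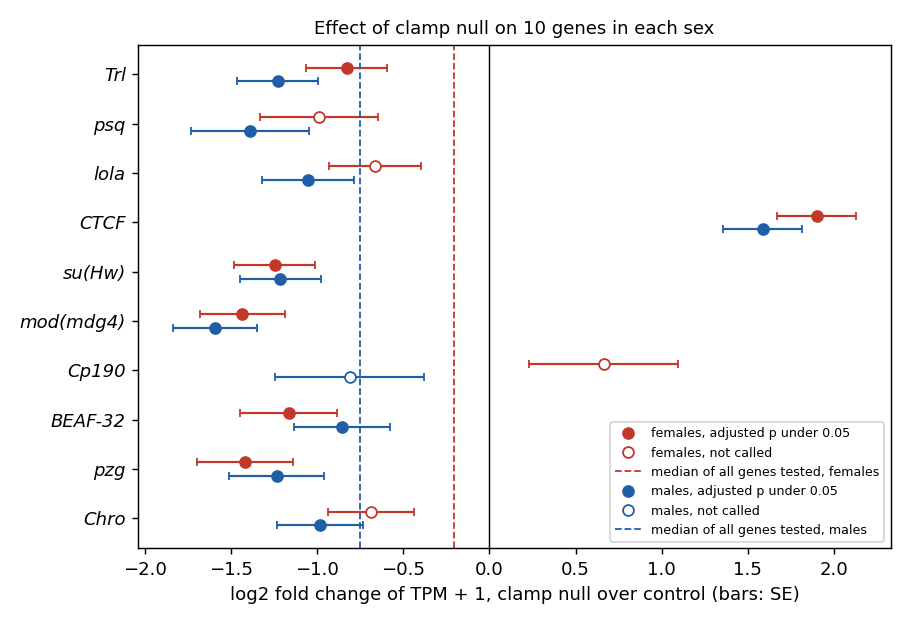
Log2 fold change of TPM + 1, clamp null over control (horizontal axis), for each gene in females (red) and males (blue), with its SE; filled points have an adjusted p under 0.05 and dashed lines mark the median of all genes tested. CTCF is at 1.90 and 1.59, and Cp190 is the one gene whose estimates lie on opposite sides of 0.

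Among the GA-binding factors, Trl, whose protein GAGA factor opens chromatin at promoters, lies on 3L from 14747929 to 14761049 of assembly BDGP6.54. It had 34.1, 27.95 and 44.4 TPM in clamp null females, against 63.7, 66.4 and 58.5 TPM in control females. Clamp null males had 22.2, 34.8 and 34.6 TPM, against 75.2, 74.4 and 65.7 TPM in control males. Each clamp null library was below every control library of its sex. Its log2 fold change was -0.83 ± 0.23 (SE) in females (adjusted p = 0.0216) and -1.23 ± 0.23 in males (adjusted p = 0.000864). The call in females was lost without clamp null library 4 or 5 or control library 1 or 2, at adjusted p of 0.0545 to 0.0816, and in males it held under all alternatives run, at -0.65 to -1.43.

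psq, which encodes Pipsqueak, a BTB protein that binds GAGA motifs and takes part in Polycomb silencing, lies on 2R from 10557888 to 10617280. It had 10.5, 7.2 and 15.2 TPM in clamp null females, against 32.7, 22.7 and 13.9 TPM in control females, and the highest clamp null library was above the lowest control. Its level in clamp null males was 7.2, 10.001 and 8.2 TPM, against 26.3, 27.6 and 18.1 TPM in control males, with no overlap. On the log2 scale the change was -0.99 ± 0.34 in females (adjusted p = 0.0528) and -1.39 ± 0.34 in males (adjusted p = 0.00463). Females passed without clamp null library 6 (-1.24, adjusted p = 0.0314) or control library 3 (-1.30, adjusted p = 0.0204).

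lola encodes a large set of BTB zinc finger proteins that act in axon guidance and cell fate, and lies on 2R from 10482207 to 10543291. It had 48.4, 34.8 and 55.6 TPM in clamp null females, against 92.7, 69.9 and 59.0 TPM in control females. Among clamp null males it had 34.7, 54.4 and 29.6 TPM, against 84.0, 81.2 and 76.1 TPM in control males. Both clamp null groups lay below their controls, by a narrow margin in females, where the log2 fold change was -0.66 ± 0.27 and was not called (adjusted p = 0.0906). In males it was -1.05 ± 0.27 (adjusted p = 0.00565), and -0.47 with median-of-ratios scaling (adjusted p = 0.0936).

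Among the Trl isoforms, Trl-RB had a lower share and a lower level in clamp null females and males. Trl is annotated with 10 transcripts, which start at 4 sites and end at 4 sites. Trl-RB ends farthest downstream, with a 3′ untranslated region of 2525 nucleotides, and encodes the same 519 residues as Trl-RC, Trl-RD, Trl-RE and Trl-RH. Trl-RD has a 3′ untranslated region of 1741 nucleotides, and Trl-RC and Trl-RH one of 61 nucleotides each. Trl-RF, with 205 nucleotides there, encodes a longer protein of 582 residues.

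Trl-RB made up 9.7, 6.1 and 16.3% of Trl TPM in clamp null females, against 47.7, 47.6 and 41.4% in control females. Its share in clamp null males was 33.3, 7.7 and 29.0%, against 59.6, 56.9 and 60.0% in control males. It was the leading Trl transcript in all 6 control libraries and lower in every clamp null library than in any control. Its share fell by 34.9 percentage points in females (SE 6.15, adjusted p = 0.0429) and by 35.5 in males (SE 6.15, adjusted p = 0.0152). Transcripts called in either direction were 0.773% of 10481 tested in females and 3.92% in males, and Trl-RB was the sole call among the 36 member transcripts tested in each sex. Over both sexes the share fell by 35.2 percentage points (SE 4.35, adjusted p = 0.00238), in a test that called 5.09% of transcripts. The difference in females ranged between -37.7 and -32.6 percentage points when single libraries were left out. Its adjusted p was above 0.05 in 12 of 18 alternatives, up to 0.138, among them those without any 1 of the 6 female libraries. In males and over both sexes the call held under all alternatives run, with adjusted p of at most 0.0499 in males and 0.00916 over both sexes. Without clamp null male libraries 4 and 5 the share in males fell by 29.9 points.

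In TPM, Trl-RB averaged 4.08 ± 2.85 in clamp null females and 28.7 ± 3.97 in control females (SD, n = 3 each). It averaged 6.70 ± 3.72 in clamp null males and 42.2 ± 2.71 in control males. The other Trl transcripts together averaged 31.4 ± 5.49 TPM in clamp null females, against 34.1 ± 0.761 TPM in control females, and overlapped. They averaged 23.8 ± 8.68 TPM in clamp null males, against 29.6 ± 2.97 TPM in control males, and overlapped as well. Trl-RB was set apart after its share was seen. The exact permutation test, two-sided, gave p = 0.1 for Trl-RB in each sex, the smallest p that 3 libraries against 3 allow. Its share and the level of Trl were each lower without overlap. The TPM of Trl-RB therefore could not overlap, and its p adds no support. For the other transcripts the exact permutation test gave p = 0.5 in each sex. With 3 libraries against 3 this cannot show that they were unchanged. A mean of the other transcripts at 92.0% of control in females and 80.6% in males stood beside one of 14.2% and 15.9% for Trl-RB.

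Trl-RC was the other Trl transcript that was called, over both sexes only. It made up 36.7, 27.98 and 23.9% in clamp null females, against 0, 11.1 and 0% in control females. Clamp null males gave it 27.8, 0 and 25.4%, and it was listed at 0 in all 3 control males. It was not called in either sex alone (adjusted p = 0.181 and 0.246) and rose by 21.8 percentage points over both sexes (SE 5.05, adjusted p = 0.0431), a call lost in 13 of 18 alternatives. Trl-RD differed by 14.99 points in females and 13.8 in males and was not called (adjusted p = 0.610 and 0.503). Clamp null male library 5 had the highest Trl-RD share, 49.9%, and the difference in males was -3.74 points without libraries 4 and 5.

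Transcripts with the same 3′ end cannot always be told apart, so shares were also summed by annotated 3′ end, a choice made after the isoform values were seen. The farthest end, shared by Trl-RB, Trl-RI and Trl-RJ, held 6.1 to 16.3% in clamp null females, against 41.4 to 47.7% in control females. It held 7.7 to 33.3% in clamp null males, against 57.7 to 60.0% in control males. The nearest end, shared by Trl-RC, Trl-RE and Trl-RH, held 37.3 to 42.6% in clamp null females, against 22.4 to 29.6% in control females. It held 25.4 to 34.3% in clamp null males, against 10.2 to 13.6% in control males. No group overlapped its control at either end. The farthest end fell by 34.9 points in females (adjusted p = 0.0344) and by 35.8 in males (adjusted p = 0.0111), where 1.16% and 4.64% of 4586 end forms were called. The nearest end rose by 17.9 points in males (adjusted p = 0.00990) and differed by 14.1 in females (adjusted p = 0.0743). It was also the one member end form called between the sexes in controls, where it fell by 15.2 points in control males relative to control females (adjusted p = 0.0343, beside 2.55% of end forms called). By coding form, the form of 519 residues held 73.5 to 88.5% in clamp null females, against 83.8 to 92.3% in control females, and its difference over both sexes was -4.75 points (adjusted p = 0.591). None of the 21 member coding forms tested was called for genotype, beside 1.53% of 5428 coding forms in females, 5.34% in males and 8.38% over both sexes.

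**Figure D3:**
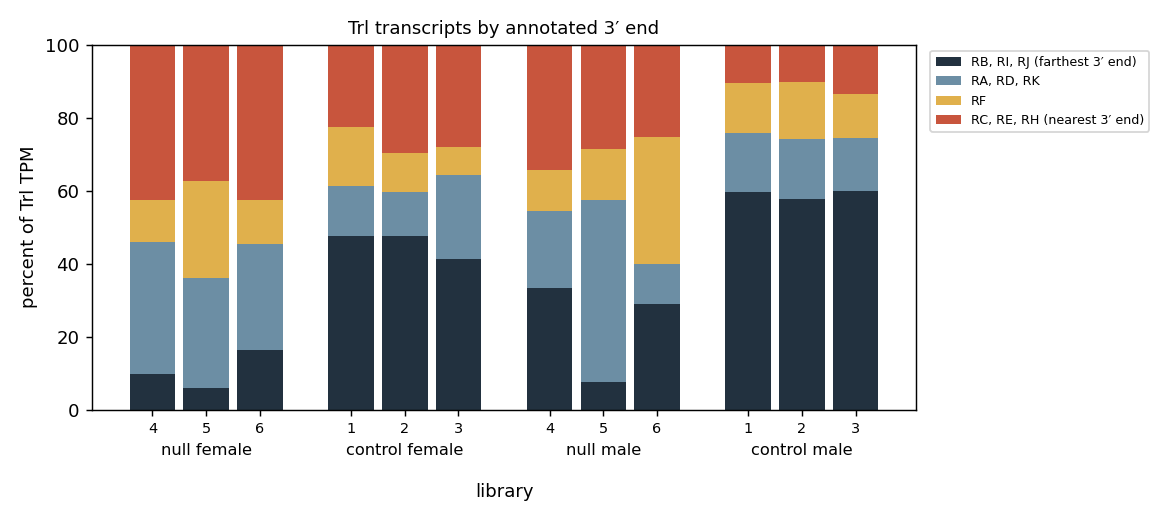
Percent of Trl TPM (vertical axis) held by transcripts grouped by annotated 3′ end, stacked for each of 12 libraries (horizontal axis). The dark segment, the farthest end with Trl-RB, spans 6.1 to 33.3% in the 6 clamp null libraries and 41.4 to 60.0% in the 6 controls.

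The isoforms of psq were not stable between libraries of 1 group. Of its 11 listed transcripts, 3 held over 50% of psq TPM in 1 library and 0% in another, and they share 1 annotated 3′ end with 7 others. psq-RM, which has the distal 3′ end and encodes the longest protein of 1123 residues, lay between 10.5 and 29.6% in every library. It made up 17.1, 28.9 and 10.5% in clamp null females, against 24.6, 24.9 and 25.7% in control females. For psq-RM clamp null males had 15.3, 29.6 and 27.8%, against 26.05, 19.2 and 24.3% in control males, and the groups overlapped in both sexes. psq-RE (61.6% and 0% in control female libraries 2 and 3) and psq-RG (74.5% in clamp null female library 4 and 0% in 10 of the other 11 libraries) show the range, and neither was called. The share of psq-RB differed by 32.9 points in males (limma, adjusted p = 0.163) and by 0 in females. For psq-RA the difference was 26.5 points in females (adjusted p = 0.438) and -13.6 in males (adjusted p = 0.643), and neither isoform was called.

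lola has 24 listed transcripts with 4 starts, 21 ends and 20 coding forms, which share the BTB domain and differ in their zinc fingers. No lola isoform reached a group mean of 20%, and the leading isoform held 12.7 to 26.6% of lola TPM. The isoforms with the highest means, chosen after their values were seen, were lola-RA, lola-RO and lola-RI. lola-RA made up 18.997, 19.9 and 12.2% in clamp null females, against 10.8, 12.6 and 18.2% in control females, and the groups overlapped. lola-RP made up 5.7, 0.7 and 5.5% in clamp null females, against 8.4, 10.7 and 4.2% in control females. Its share in clamp null males was 4.7, 1.8 and 4.6%, against 9.8, 13.9 and 15.2% in control males, with no overlap. Its difference was -3.81 points in females (adjusted p = 0.699) and -9.25 in males (adjusted p = 0.125), and no lola isoform share was called in any comparison. In a fit of transcript levels instead of shares, lola-RP fell by 2.29 on the log2 scale in males (adjusted p = 0.00627) and differed by -1.26 in females (adjusted p = 0.156). The heat map of isoform shares shows lola as a mixture in every group.

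CTCF, a zinc finger insulator protein with homologs in vertebrates, lies on 3L from 7353578 to 7356713. It had 38.1, 28.8 and 37.8 TPM in clamp null females, against 8.6, 9.9 and 7.3 TPM in control females. The clamp null males had 27.3, 39.0 and 26.9 TPM, against 9.9, 9.3 and 9.3 TPM in control males. The 6 clamp null libraries lay above all 6 controls, with group means 4.06 times those of controls in females and 3.26 times in males. Its log2 fold change was 1.90 ± 0.23 in females (adjusted p = 0.000212) and 1.59 ± 0.23 in males (adjusted p = 0.000155), beside medians of all genes below 0. It was called in both sexes under all 19 alternatives, at 1.74 to 2.16 in females and 1.40 to 2.13 in males. Without clamp null male libraries 4 and 5 the value in males was 1.41.

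Ratios between members do not depend on how a library is scaled, and they were computed after the levels were seen. CTCF made up 16.7, 16.4 and 12.9% of the summed TPM of the 10 members in clamp null females, against 2.0, 2.3 and 2.2% in control females. Clamp null males gave it 13.9, 15.3 and 13.5%, against 2.1, 2.1 and 2.2% in control males. By TPM it ranked 2 to 4 among the 10 members in clamp null libraries and 9 or 10 in controls. The ratio of CTCF to su(Hw) was 3.06 to 4.57 in clamp null females, against 0.355 to 0.381 in control females. It was 3.17 to 4.84 in clamp null males, against 0.425 to 0.510 in control males. Each of these differences reached p = 0.1 in the exact permutation test, two-sided, the smallest this design allows. In each sex CTCF was higher, and su(Hw) and the sum of the 9 other members lower, without overlap. The share and the ratio to su(Hw) therefore could not overlap, and their p adds no support.

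CTCF has 1 transcript here, so nothing within the gene can be compared. The gene qm overlaps its 3′ end by 45 nucleotides on the other strand and had 14.8 to 17.8 TPM in clamp null females, against 9.7 to 19.3 TPM in control females. In clamp null males qm had 16.6 to 18.8 TPM, against 19.1 to 26.7 TPM in control males. qm thus overlapped between genotypes in females and lay lower in clamp null males. The next gene on the strand of CTCF, pst, lies 561 nucleotides away. pst had 103.0 to 181.7 TPM in clamp null females, against 59.3 to 121.8 TPM in control females, which overlap. It had 120.7 to 186.1 TPM in clamp null males, against 36.6 to 55.6 TPM in control males, which do not. Whether the deposited counting used strand is not given in the sources used here, and the part of neighbouring genes in the level of CTCF was not tested.

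**Figure D4:**
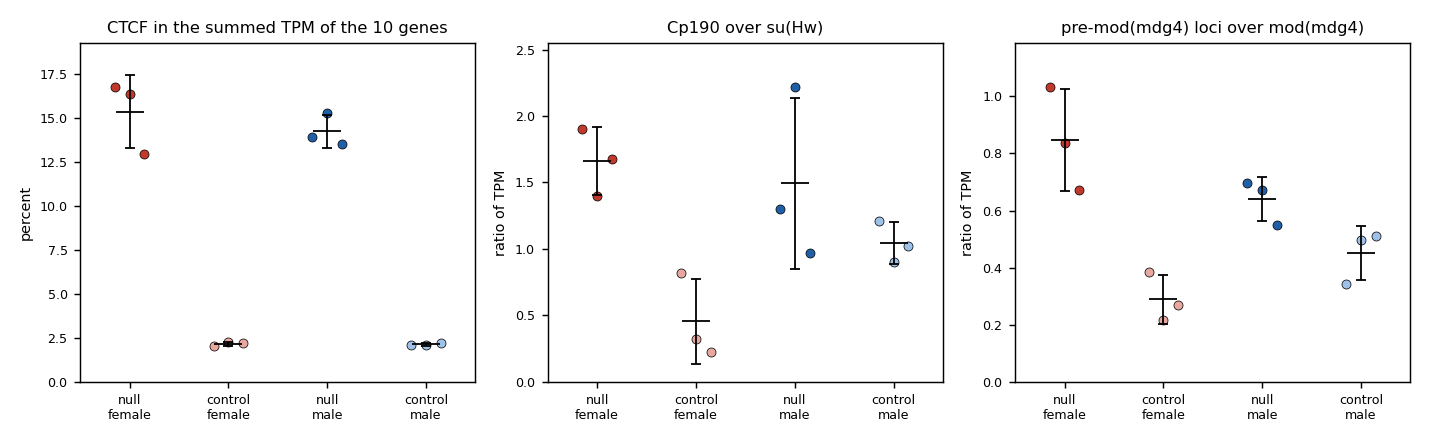
CTCF as percent of the summed TPM of the 10 genes, the ratio of Cp190 to su(Hw) TPM, and the ratio of the summed pre-mod(mdg4) loci to mod(mdg4) TPM (vertical axes, from 0) in 12 libraries, as points with the group mean and SD (n = 3). CTCF makes up 12.9 to 16.7% in clamp null libraries and 2.0 to 2.3% in controls.

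su(Hw), the zinc finger protein that binds the insulator of the gypsy element, lies on 3R from 14304455 to 14308589. It had 8.3, 7.8 and 12.3 TPM in clamp null females, against 22.5, 27.9 and 20.4 TPM in control females. Clamp null males had 8.5, 8.1 and 8.5 TPM, against 22.0, 21.8 and 18.3 TPM in control males. Clamp null means were 40.1% of control in females and 40.2% in males. On the log2 scale the change was -1.25 ± 0.24 in females (adjusted p = 0.00286) and -1.21 ± 0.24 in males (adjusted p = 0.00104). It was called under all alternatives run, at -1.002 to -1.43 in females and -0.66 to -1.41 in males. Its 3 transcripts encode 1 protein, and su(Hw)-RA held 89.0 to 100% of the level in every library.

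mod(mdg4), the BTB cofactor that joins Su(Hw) in the gypsy insulator complex, was the most abundant member in all 6 control libraries. It lies on 3R from 21350846 to 21377401. It had 35.6, 29.3 and 58.8 TPM in clamp null females, against 96.6, 131.6 and 100.2 TPM in control females. Its level in clamp null males was 41.4, 43.7 and 42.0 TPM, against 141.8, 127.1 and 121.7 TPM in control males. The log2 fold change, -1.44 ± 0.25 in females (adjusted p = 0.00162) and -1.59 ± 0.25 in males (adjusted p = 0.000229), was the lowest of the members in each sex. It was called under all alternatives run. In females mod(mdg4) was 3.78 to 4.77 times su(Hw) in clamp null females, against 4.29 to 4.92 times in control females (exact permutation test, two-sided, p = 0.4). The same ratio was 4.88 to 5.43 in clamp null males, against 5.82 to 6.64 in control males, without overlap (exact permutation test, p = 0.1).

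The 22 listed mod(mdg4) transcripts start at 1 site, share a BTB part and end at 21 sites, and each encodes its own protein. mod(mdg4)-RS, of 506 residues, was the leading isoform in 11 of 12 libraries. It made up 25.5, 20.7 and 33.7% in clamp null females, against 18.7, 11.2 and 25.6% in control females. Among clamp null males it held 29.6, 41.2 and 32.0%, against 17.0, 31.3 and 22.1% in control males. The groups overlapped in both sexes, and differences of 8.12 points in females and 10.8 in males were not called (adjusted p = 0.674 and 0.377). Between 2 and 13 of the 22 transcripts were listed at 0 in a library.

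**Figure D5:**
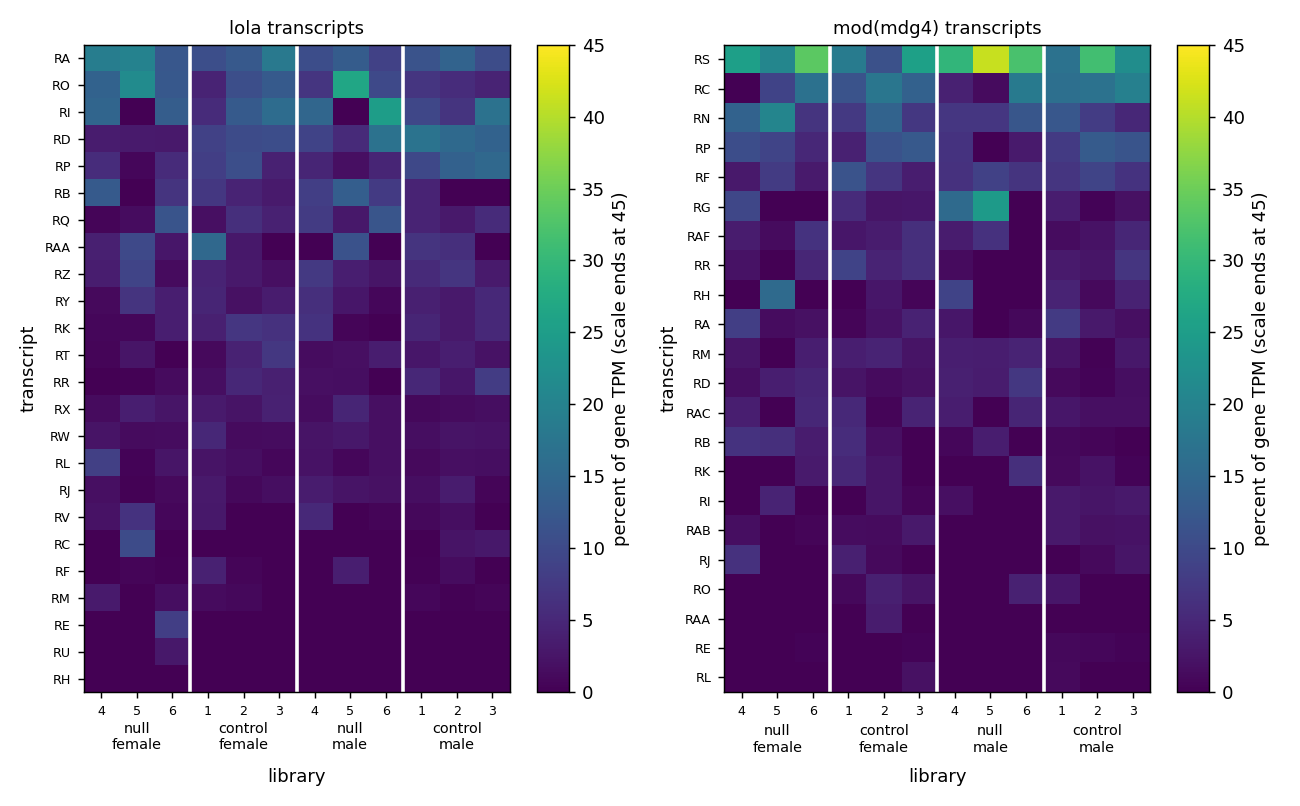
Percent of the TPM of lola (left) and mod(mdg4) (right) held by each transcript (vertical axis, ordered by mean share) in 12 libraries (horizontal axis, 3 per group); the colour scale ends at 45%. lola-RA leads lola by mean share and mod(mdg4)-RS leads mod(mdg4), with 11.2 to 41.2%.

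Some mod(mdg4) messages are joined by trans-splicing from separate precursor RNAs, which the annotation lists as pre-mod(mdg4) loci on both strands of the gene. Of these, 22 were quantified. They summed to 36.7, 24.6 and 39.5 TPM in clamp null females, against 37.1, 28.3 and 26.8 TPM in control females. In males they summed to 28.9, 29.4 and 23.1 TPM in clamp null libraries, against 48.5, 63.1 and 62.3 TPM in control males. The sums overlapped in females and were lower in clamp null males without overlap. Relative to mod(mdg4) they were higher in clamp null larvae, at 0.673 to 1.03 in clamp null females, against 0.215 to 0.384 in control females. The ratio was 0.551 to 0.697 in clamp null males, against 0.342 to 0.512 in control males (exact permutation test, two-sided, p = 0.1 in each sex, the smallest possible). Many of these loci share exons with mod(mdg4), so reads of both cannot always be told apart. With the loci summed into the gene, the log2 fold change of mod(mdg4) was -0.93 in females (adjusted p = 0.00867) and -1.43 in males (adjusted p = 0.000207). The locus pre-mod(mdg4)-V, picked after its values were seen, had 7.27, 11.1 and 11.4 TPM in control males and at most 2.53 TPM in any other library. pre-lola-G, an overlapping locus of lola, had 6.80, 11.9 and 11.5 TPM in control males and at most 3.54 TPM elsewhere. The sum of 19 testis genes was 10.9 and 19.4 TPM in clamp null male libraries 4 and 5, 308 TPM in library 6 and 1371 to 2260 TPM in control males. Both female groups were at 6.6 to 34.3 TPM. The part of testis RNA in these loci was not tested.

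Cp190, a BTB zinc finger cofactor found with CTCF, Su(Hw) and BEAF-32, lies on 3R from 15270432 to 15275241. It had 15.9, 10.8 and 20.7 TPM in clamp null females, against 18.5, 9.1 and 4.5 TPM in control females. Among clamp null males it had 10.99, 17.8 and 8.2 TPM, against 26.7, 19.6 and 18.7 TPM in control males. Female libraries overlapped over most of their range, and male libraries did not. Its log2 fold change was 0.66 ± 0.43 in females (adjusted p = 0.298) and -0.81 ± 0.43 in males (adjusted p = 0.127), and neither was called. The value in females was 1.13 without control library 1 and 0.22 without control library 3. In males it was -0.25 with median-of-ratios scaling and -1.28 without clamp null libraries 4 and 5, and neither was called. Over both sexes it was -0.07 ± 0.31 (adjusted p = 0.846).

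Cp190 was the member whose estimates differed most between the sexes. In controls it was 1.12 ± 0.43 higher in males than in females on the log2 scale (adjusted p = 0.0835), and the genotype effect in males minus that in females was -1.48 ± 0.61 (interaction, adjusted p = 0.152). Both passed without control female library 1, the highest of its group, at 1.58 (adjusted p = 0.0123) and -1.94 (adjusted p = 0.0346). Without control female library 3, the lowest of its group, they were 0.68 (adjusted p = 0.334) and -1.03 (adjusted p = 0.317). Relative to su(Hw), Cp190 was at 1.40 to 1.91 in clamp null females, against 0.223 to 0.820 in control females, without overlap (exact permutation test, two-sided, p = 0.1). The ratio was 0.968 to 2.21 in clamp null males, against 0.900 to 1.21 in control males (exact permutation test, p = 0.3). Zip88E, which overlaps the 3′ end of Cp190 by 101 nucleotides on the other strand, had 2.31 to 2.54 TPM in clamp null females, against 24.8 to 34.2 TPM in control females. In clamp null males Zip88E had 4.42 to 6.13 TPM, against 17.6 to 26.8 TPM in control males, and its part in the values of Cp190 was not tested.

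BEAF-32, which binds domain borders near active promoters, lies on 2R from 14770469 to 14772630. It had 15.7, 16.5 and 26.3 TPM in clamp null females, against 43.0, 56.4 and 34.7 TPM in control females. The clamp null males had 28.9, 30.0 and 17.9 TPM, against 41.0, 48.2 and 49.3 TPM in control males. No group overlapped its control, and the log2 fold change was -1.17 ± 0.28 in females (adjusted p = 0.0102) and -0.86 ± 0.28 in males (adjusted p = 0.0208). Beside a median of -0.75 over all genes in males, the call in males was lost without clamp null library 6 (-0.63), without control library 2 or 3 (-0.82 and -0.81) and with median-of-ratios scaling (-0.28, adjusted p = 0.392). Without clamp null libraries 4 and 5 it was -1.32. In females it was lost without control library 2 (-0.99, adjusted p = 0.0535).

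BEAF-32-RA encodes 283 residues, and BEAF-32-RB and BEAF-32-RC encode 1 protein of 282 residues. BEAF-32-RA led with 43.8, 74.3 and 55.8% in clamp null females, against 53.4, 51.8 and 67.5% in control females. Clamp null males had 75.4, 83.7 and 37.4%, against 78.3, 48.0 and 59.4% in control males. BEAF-32-RB ranged from 0 to 62.6% over all libraries, and neither isoform was called. BEAF-32-RC was listed at 0 in all 3 clamp null males and made up 20.6, 25.7 and 26.01% in clamp null females. In controls it made up 5.3, 15.04 and 6.6% in males and 10.6, 5.0 and 9.0% in females. Its share was 24.1 points lower in clamp null males than in clamp null females (SE 3.21, adjusted p = 0.0296), a comparison in which 0.143% of transcripts were called. The call was lost in 11 of 18 alternatives, among them the one without clamp null male libraries 4 and 5. The interaction of genotype and sex was not called (-24.9, adjusted p = 0.0540). In TPM, BEAF-32-RC averaged 4.76 ± 1.86 in clamp null females and was at 0 in the clamp null males, which is listed as an estimate and not as a count.

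pzg, a zinc finger protein that works with the NURF remodeling complex and the replication factor DREF, lies on 3L from 21286099 to 21290310. It had 10.8, 5.9 and 11.2 TPM in clamp null females, against 25.3, 29.1 and 23.0 TPM in control females. Its level in clamp null males was 8.5, 11.1 and 14.5 TPM, against 27.8, 25.1 and 30.3 TPM in control males. The clamp null means were 36.0% of control in females and 41.1% in males. On the log2 scale the change was -1.42 ± 0.28 in females (adjusted p = 0.00341) and -1.24 ± 0.28 in males (adjusted p = 0.00262). Without clamp null male libraries 4 and 5 the change in males was -0.88, and the call was lost.

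Chro encodes Chromator, a chromodomain protein found at the interbands of polytene chromosomes and in a complex with Putzig, the product of pzg. It lies on 3L from 22873702 to 22878984. It had 10.5, 6.8 and 9.96 TPM in clamp null females, against 18.6, 15.5 and 11.8 TPM in control females. The level in clamp null males was 7.1, 6.6 and 8.5 TPM, against 16.04, 16.1 and 14.6 TPM in control males. The groups did not overlap in either sex. Its log2 fold change was -0.69 ± 0.25 in females (adjusted p = 0.0646, not called) and -0.98 ± 0.25 in males (adjusted p = 0.00572). Females passed without control library 3 (-0.85, adjusted p = 0.0444), and males did not with median-of-ratios scaling (-0.44) or without clamp null libraries 4 and 5 (-0.80).

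For Cp190, pzg and Chro the isoform estimates switched between transcripts that encode 1 protein. Cp190-RA held 0, 100 and 95.8% in clamp null females, against 64.3, 100 and 0% in control females, with Cp190-RB at the rest. In clamp null males Cp190-RA held 66.4, 100 and 100%, against 0, 16.8 and 0% in control males. pzg-RA held 100% in all 6 clamp null libraries, in control female library 3 and in control male libraries 1 and 2, and 13.9 to 74.8% in the others, with pzg-RB at the rest. Chro-RB, Chro-RC and Chro-RA each held over 50% in 1 library and 0% in another. No isoform of these genes was called in any comparison.

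Between the sexes no member was called. In controls, where 24.8% of all genes were called for male over female, the log2 differences of the 9 members other than Cp190 ran from -0.17 to 0.26. In clamp null larvae 2 genes of all tested were called (0.0179%), 622 had an unadjusted p under 0.05 and no member did, with differences of the 9 from -0.29 to 0.38. This comparison includes clamp null male libraries 4 and 5, which were like female libraries in genes found in control males and not in control females. Without them a single male library is left, so calls of that fit are not counted here. The interaction of genotype and sex was called for 14.7% of genes and for no member, with adjusted p of 0.152 or more. Among transcript shares 1.88% were called between the sexes in controls and 0.658% for the interaction, with no member transcript among them. Over both sexes CTCF was called higher at 1.74 ± 0.16 and 8 members lower, at -0.84 to -1.51, beside 63.4% of all genes called, 14.3% higher and 49% lower.

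The partners of these proteins were listed as 6 GA-binding and BTB partners, 11 other DNA-binding insulator proteins and 15 cofactors with the cohesin subunits, and 30 of these 32 were tested. No partner was called higher in either sex, beside 9.8% of all genes tested in females and 11.3% in males. In females 7 were called lower, beside 15.6% of all genes tested, and in males 20, beside 45.8%. Their medians were -0.44 in females and -1.02 in males on the log2 scale. The partners with the largest log2 fold changes called in either sex, all 3 of them in males, were insv, which encodes the BEN-domain protein Insensitive, Ibf1, which encodes an insulator-binding factor that works with CP190, and JIL-1, a histone kinase of active chromatin. insv was at 0.32, 0.30 and 1.60 TPM in clamp null females, against 4.804, 6.74 and 2.97 TPM in control females, and fell by 1.78 (adjusted p = 0.0343). In clamp null males it was at 1.06, 0 and 4.69 TPM, against 18.7, 11.7 and 18.96 TPM in control males, and fell by 2.91 (adjusted p = 0.000885). Ibf1 fell by 2.004 in males (adjusted p = 0.00434) and was at -0.39 in females (adjusted p = 0.639). JIL-1 fell by 1.99 in males (adjusted p = 0.000510) and was at -0.97 in females (adjusted p = 0.0589). Clamp, the targeted gene, is counted among these partners and their lower calls. It fell by 1.08 in females (adjusted p = 0.00276) and by 1.24 in males (adjusted p = 0.000332). CTCF was thus the one gene called higher among the 10 members and 30 partners tested, beside those 9.8% and 11.3% of all genes.

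Markers of several tissues moved with genotype beside these values, and in whole larvae fewer cells of a type and less RNA per cell cannot be told apart. Over all genes tested, 9.8% were called higher and 15.6% lower in females, and 11.3% and 45.8% in males. The lower calls of nervous system and midgut genes in males did not exceed that share. The 7 glue genes of the salivary gland summed to 10.3 to 3628 TPM in clamp null libraries, against 80289 to 154034 TPM in controls. The 10 imaginal disc genes summed to 13.004 to 32.4 TPM in clamp null females, against 43.4 to 66.8 TPM in control females, with 5 called lower. The clamp null males summed to 15.7 to 20.3 TPM, against 74.6 to 88.7 TPM in control males, with 9 called lower. The 8 genes of the nervous system summed to 24.3 to 44.5 TPM in clamp null females, against 48.9 to 89.7 TPM in control females, with 2 of 6 tested called lower. Among clamp null males they summed to 26.6 to 45.4 TPM, against 59.0 to 79.5 TPM in control males, again with 2 called lower. The 5 muscle genes summed to 20447 to 28583 TPM in clamp null libraries, against 5256 to 11477 TPM in controls, with 4 called higher in females and 5 in males. The 6 fat body genes went both ways, with 1 of 6 called higher and 1 lower in females, and among males 2 called higher and 3 lower, and summed to 4370 to 14991 TPM in clamp null libraries, against 6791 to 20690.5 TPM in controls. The 5 midgut genes summed to 902 to 3379 TPM in clamp null libraries, against 880 to 2850 TPM in controls, with 2 called lower in each sex. The 3 matched genes of a germ line list, osk, bam and vas, summed to 0.360 to 1.31 TPM in clamp null females, against 11.5 to 37.2 TPM in control females. In clamp null males they summed to 0.251 to 4.37 TPM, against 27.0 to 50.3 TPM in control males, so the list does not mark the female germ line alone. Of 2 tested, 1 was called lower in females and 2 in males. The part of tissue makeup in the levels of the members was not tested. With the glue and testis genes left out and the rest rescaled, CTCF was at 1.74 in females and 1.40 in males. Glue genes held up to 154034 TPM in controls, so the rescaling raised the other genes more in controls and lowered their fold changes. Calls of members under it are therefore not counted here.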

How the data were processed

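L3 RNA of clamp null and control larvae was purified by poly-T beads and sequenced by the authors. They quantified transcripts with Salmon and deposited TPM per transcript and library, with no filter and no counts. The submitters' processing notes also name FastQC, Trim Galore, cutadapt, Bowtie2 and dm6, and the authors used annotation r6.29. Depth is thus unknown, no intervals from counts could be given, and the number of libraries limits the precision. P-values measure only the spread between libraries of a group, which may be technical in part.

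Transcripts were joined to genes with Ensembl release 115 (BDGP6.54), which held 29926 of 29936. Gene TPM entered limma 3.58.1 (R 4.3.3) as log2(TPM + 1), with a trend and all 12 libraries in 4 groups, where the mean TPM was 1 or more. Fold changes on this scale understate the change of low genes. Shares were tested in percentage points, without a trend, for transcripts of genes with at least 2 transcripts, at least 1 TPM in every library and a mean share of at least 5%. P-values were adjusted over all features by the Benjamini-Hochberg method and called under 0.05. Both fits were tested on simulated data. Other scripts used Python 3.11.15, pandas 2.3.3, numpy 2.4.6 and matplotlib 3.10.9.

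Named isoforms have a group mean of at least 20% or a call; others named are marked, apart from those that complete a count. Members, lists and tests were chosen with earlier results of these data known. No sequence is printed. Alternatives were another pseudocount, scaling and filter, fits on 2 groups, single libraries left out and a replicate block. Those chosen after seeing the data were fits without clamp null male libraries 4 and 5, over both sexes, of coding or 3′ end forms, with precursor loci summed, and without glue and testis genes.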

Additional observations from a re-analysis of the deposited data

How the results depend on the processing

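Left-out libraries gave 1711 to 3364 called genes in females (2834 with all), 5297 to 6455 in males, 2112 to 3014 between the sexes in controls, 1 to 3 in clamp null larvae (2 with all), 1124 to 2105 for the interaction and 6427 to 7326 over both sexes. For shares they gave 60 to 114 transcripts in females, 244 to 487 in males, 110 to 274 between the sexes in controls, 12 to 42 in clamp null larvae, 63 to 136 for the interaction and 372 to 679 over both sexes. Between the sexes in clamp null larvae 4 genes were called with a pseudocount of 0.1, 1 with no filter, 1 in a fit of the 2 groups alone and 1744 without clamp null male libraries 4 and 5, where the lone male is assumed to vary like the other groups. The interaction was called for 416 genes with a pseudocount of 0.1, against 1639 with 1.

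Fitting log2(TPM + 1) of transcripts tests their level and not their share, and called 2126 in females, 6155 in males, 2645 between the sexes in controls, 7 in clamp null larvae, 1334 for the interaction and 7185 over both sexes. Shares gave 81, 411, 197, 15, 69 and 533 in the same order. By 3′ end, 53 forms were called in females, 213 in males, 117 between the sexes in controls, 4 in clamp null larvae and 300 over both sexes; by coding form, 117 between the sexes in controls and 32 for the interaction. Both groupings test fewer features. Without clamp null male libraries 4 and 5 the counts were 252 in males, 213 between the sexes in clamp null larvae, 163 for the interaction and 344 over both sexes. A minimum of 5 TPM gave 104 between the sexes in controls, 3 in clamp null larvae and 17 for the interaction.

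Cp190 over both sexes changed sign, at 0.33 with median-of-ratios scaling and -0.30 to 0.16 with libraries left out. Trl-RD changed sign in males without libraries 4 and 5 (-3.74 points), and its level differed by -0.41 in males and -0.14 over both sexes on the log2 scale. The level of mod(mdg4)-RS differed by -0.81 in females, -0.99 in males and -0.90 over both sexes, opposite to its share. The level of lola-RP, whose share was not called, was called in males (-2.29) and over both sexes (-1.77). The cause of these changes was not tested.

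No paired analysis was possible for genotype because clamp null and control libraries share no replicate number. For the sexes, clamp null samples with the same number correlated at -0.08 to -0.02 in their deviations. In controls numbers 1, 2 and 3 gave 0.26, -0.06 and 0.15, against -0.24 to 0.10 for unlike numbers. So few pairs cannot tell whether the numbers pair the samples. With the replicate block the share counts were 61 between the sexes in controls, 6 in clamp null larvae and 27 for the interaction, and BEAF-32-RC lost its call (adjusted p = 0.480), the one member call it changed. Depth is unknown, so low isoforms listed at 0 may be failed estimates.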

Other observations

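Other BTB transcription factors, a list of 9 with 8 tested, were called in both directions. Females had 1 higher and 1 lower, beside 9.8% and 15.6% of all genes tested, and males had 1 higher and 6 lower, beside 11.3% and 45.8%. The gene called higher in both sexes, named here after its values were seen, was fru, which shapes male courtship circuits. It was at 37.7, 23.6 and 25.2 TPM in clamp null females, against 8.83, 9.88 and 12.8 TPM in control females (1.36 on the log2 scale, limma, adjusted p = 0.00423). Among clamp null males it was at 19.98, 30.5 and 20.3 TPM, against 7.50, 11.1 and 10.5 TPM in control males (1.19, adjusted p = 0.00328). All clamp null libraries lay above all controls, as for CTCF.

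br, the ecdysone response gene that drives the onset of metamorphosis, was the gene called lower in females. It was at 11.97, 7.36 and 23.1 TPM in clamp null females, against 156.9, 75.7 and 48.2 TPM in control females, and fell by 2.61 (adjusted p = 0.00653). In clamp null males it was at 2.83, 15.2 and 3.95 TPM, against 126.4, 121.7 and 73.0 TPM in control males, and fell by 3.96 (adjusted p = 0.000156). The interaction of genotype and sex was called for 2 of the 8 genes tested, ab and chinmo, beside 14.7% of all genes tested. ab differed by 0.73 in females and -1.07 in males (interaction -1.80, adjusted p = 0.0177), and chinmo by 0.93 and -1.51 (interaction -2.44, adjusted p = 0.0179). ab had 14.2 to 17.9 TPM in control males, against 3.11 to 6.84 TPM in control females. For chinmo these were 9.51 to 13.5 TPM and 0.0643 to 2.69 TPM. Both calls are given only with the clamp null male libraries that were like female libraries in genes found in control males.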
